A study of Mus musculus with 9 samples.

Results

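The nuclear-encoded subunits of the mitochondrial respiratory chain and of ATP synthase were followed in whole mouse cochlea across age and long-term calorie restriction. Members were the probe sets that the array annotation paired with exactly 1 gene symbol beginning with Nduf, Uqcr, Atp5, Cox4, Cox5, Cox6, Cox7 or Cox8, or naming Sdha, Sdhb, Sdhc or Sdhd. This rule found 179 of the 45037 probe sets on the array, and these stood for 90 of its 18193 singly named genes. A further 8 probe sets with such symbols carried several gene names and were left out. Of the members, 158 probe sets of 87 genes lay above the signal filter, and Ndufaf6, Cox7b2 and Cox7c did not. By what the proteins are known to do, the rule took in 34 genes of complex I, 4 of complex II, 8 of complex III, 17 of complex IV and 17 of complex V, together with 8 complex I assembly factors and 2 paralogs, Ndufa4l2 and Cox7a2l. Ndufa4, named for complex I, was counted with complex IV, where its protein sits.

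The cochleae came from male C57BL/6 mice in 3 groups: 4-month-old young controls (YC), 15-month-old controls (MC) and 15-month-old calorie-restricted mice (CR). Controls of both ages were fed 84 kcal per week, and the restricted mice 62 kcal per week from 2 months of age, a 26% reduction. Every sample pooled 4 cochleae of 2 mice, and each group had 3 such pools with 1 array each, so that the spread between arrays is a spread between pools of very few mice. The comparison of MC with YC addressed age, and that of CR with MC addressed the diet.

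Complexes I to IV pass electrons from NADH and succinate to oxygen, complexes I, III and IV pump protons across the inner mitochondrial membrane as they do so, and complex V uses the returning protons to make ATP. In the cochlea the stria vascularis, which drives potassium into the endolymph, is known as a heavy user of this ATP. Complex IV, cytochrome c oxidase, has subunits that exist as tissue isoforms: Cox6a2, Cox7a1 and Cox8b are the forms of heart and skeletal muscle, with Cox7a1 and Cox8b also found in brown fat, while Cox6a1, Cox7a2 and Cox8a are their widely expressed partners.

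The arrays separated by overall signal in a way that partly followed the groups. The deposited median signal was 526.8 to 626.6 on the 3 CR arrays and YC 1, and 842.4 to 1103.9 on the 3 MC arrays, YC 2 and YC 3. CR and MC therefore shared no class of array, and the diet and this array class can be told apart only through YC. Any fit with array class as a term thus rests on YC 1 against YC 2 and YC 3, and so on 1 array of the lower class. Markers of other tissues differed as well. All 14 fast skeletal muscle markers had a lower value in CR than in MC, with a median log2 difference of -2.16, and 10 of them passed the test (limma, Benjamini-Hochberg adjusted p under 0.05). Of the 12 cochlear markers above the filter, 10 were higher in CR, with a median difference of 1.0, which was 1.84 with arrays centred and 0.34 (9 higher and 3 lower) once array class entered the fit. Limma called 0 of these 12, and 7 reached an unadjusted p under 0.05. The hair cell markers Pou4f3 and Slc26a5 lay below the filter. Of the 5 others 2 were higher and 3 lower in CR, with a median of -0.54 (-0.23 without CR 1 and -0.19 without MC 3). Only 1 of the 5 reached an unadjusted p under 0.05, Pvalb, at -1.49 (limma adjusted p = 0.101). Its deposited signals, 27482.2 to 130434, lay far above those of the other hair cell markers. Like the fast muscle markers, Pvalb was lower on every CR array than on every MC array. The part of other tissues in its value was not tested. In whole tissue, fewer cells of a type and less RNA per cell cannot be told apart.

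Promoters are shown for 4 genes described further on, the complex IV isoforms Cox6a1, Cox7a1 and Cox8b, and Uqcrh of complex III. Each sequence is the 250 bases before the gene's start in the RefSeq annotation of GRCm38.p6, 5′ to 3′ on the gene's strand. Capitals mark matches to CCGGAAG (the GABPA motif) or to GCGCA, any base and GCGC (the NRF1 motif) in Cox6a1 and Uqcrh, and to CANNTG (the E-box) in Cox7a1 and Cox8b, each on either strand. Cox6a1 lies at chr5:115348959-115349208 on the minus strand, Cox7a1 at chr7:30183921-30184170 on the plus strand, Cox8b at chr7:140900447-140900696 on the minus strand and Uqcrh at chr4:116075071-116075320 on the minus strand. Promoter entries were found for 74 of the 90 member genes, and Cox6a2 was not among them.
Cox6a1: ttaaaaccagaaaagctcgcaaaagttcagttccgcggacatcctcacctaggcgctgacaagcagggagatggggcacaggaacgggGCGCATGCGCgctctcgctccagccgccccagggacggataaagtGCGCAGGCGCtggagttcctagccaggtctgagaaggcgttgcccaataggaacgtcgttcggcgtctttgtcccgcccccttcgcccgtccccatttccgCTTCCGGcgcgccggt
Cox7a1: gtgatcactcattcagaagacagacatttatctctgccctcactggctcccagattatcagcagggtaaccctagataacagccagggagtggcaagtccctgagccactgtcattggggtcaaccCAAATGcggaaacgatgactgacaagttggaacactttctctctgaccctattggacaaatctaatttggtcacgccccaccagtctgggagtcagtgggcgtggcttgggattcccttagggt
Cox8b: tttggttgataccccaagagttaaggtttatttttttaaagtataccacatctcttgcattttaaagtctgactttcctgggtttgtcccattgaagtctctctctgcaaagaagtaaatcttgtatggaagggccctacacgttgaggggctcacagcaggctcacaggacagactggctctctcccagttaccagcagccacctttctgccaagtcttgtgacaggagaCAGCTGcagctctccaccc
Uqcrh: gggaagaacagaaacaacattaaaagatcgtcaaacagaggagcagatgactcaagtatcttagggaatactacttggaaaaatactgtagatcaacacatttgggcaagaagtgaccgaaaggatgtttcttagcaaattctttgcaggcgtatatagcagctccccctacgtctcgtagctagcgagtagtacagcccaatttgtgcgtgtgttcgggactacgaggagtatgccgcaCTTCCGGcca

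The promoter of Cox6a1 differed in its letters from those of Cox7a1 and Cox8b. Cox6a1 is the partner of Cox6a2, which had no promoter entry. The partners of Cox7a1 and Cox8b are not shown, so no isoform pair is compared here. The Cox6a1 window held 26 CpG dinucleotides, 1 GABPA match and 2 NRF1 matches. Cox7a1 and Cox8b held 4 and 1 CpG dinucleotides, 1 E-box each and no match to either of the other motifs. The Uqcrh window had 11 CpG dinucleotides, 1 GABPA match and 2 E-boxes, which are not in capitals. Among the 79 promoter entries of member genes, 17.7% held the GABPA motif, against 6.91% of all 32851 entries, and 16.5% held the NRF1 motif, against 3.74%. The E-box was present in 64.6% of member entries and 66.2% of all entries. The ESRRA motif AAGGTCA was present in 6.33% and 4.08%, and the MEF2 motif in 0% and 0.508%. These matches describe the windows and are not measured binding sites.

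Values below are log2(signal + 16) after quantile normalization, and differences between groups are on that scale. Each gene is represented by its brightest measured probe set unless another is named, and levels of different probe sets are not compared.

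Between 4 and 15 months of age no member passed the test. Of the 158 probe sets, limma called 0, against 0% of all 27022 tested, and 0 reached an unadjusted p under 0.05, against 3.39%. The 3 MC arrays and the 3 YC arrays did not overlap for 5 member probe sets, or 3.16%, against 5.88% of all probe sets. Over the 87 genes the median difference of MC from YC was 0.04, with 47 genes higher and 40 lower, beside a median of 0.02 over all probe sets. The split depended on the scaling: with arrays centred on their median it was 11 higher and 76 lower, with a member median of -0.21 and an all-probe median of -0.15. On values as deposited it was 43 higher and 44 lower.

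The age values were narrow for most members. The 95% interval of the difference lay within 2-fold in either direction for 73 of the 87 genes, a share that probe sets of all levels reached in 30.6% of cases and those with a mean log2 of at least 11.27 in 71.8%. It lay within 1.5-fold for 48 genes. All 17 complex V genes and all 8 complex III genes had intervals within 2-fold, as did 32 of 34 in complex I, 3 of 4 in complex II and 11 of 15 in complex IV. The assembly factors were less precise, with 1 of 7 inside that bound and a median standard error (SE) of 0.39, against 0.20 for all members.

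The complexes had similar medians with age. The median difference of MC from YC was 0.02 in complex I, 0.07 in complex II, 0.05 in complex III, -0.01 in complex IV and 0.08 in complex V, none of them larger than the median SE of a single gene. In complex V, which holds the catalytic Atp5b and the membrane ring subunits Atp5g1, Atp5g2 and Atp5g3, 12 of 17 genes were higher and none differed by more than 0.25. In complex I, where the proton-pumping core is encoded partly by mitochondrial DNA, the 6 nuclear core genes had a median of 0.07 and the 28 accessory genes a median of 0.00.

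Few members separated the controls by age. Uqcrc1, a core protein of complex III, had log2 values of 14.47, 14.28 and 14.51 in YC and 14.97, 14.55 and 14.60 in MC. All 3 MC arrays lay above all 3 YC arrays, with a difference of 0.29 ± 0.17 (SE, n = 3 per group, limma adjusted p = 1). Ndufa7, an accessory subunit of complex I, had 14.09, 14.24 and 14.41 in YC and 14.02, 14.08 and 14.04 in MC. The MC arrays lay just below the YC arrays for this probe set, with a difference of -0.20, while the other 4 probe sets of Ndufa7 had differences between 0.00 and 0.29. Sdha, the flavoprotein of complex II, had a difference of 0.21, Ndufb5 of complex I 0.38, Uqcrq of complex III 0.16 and Atp5l of complex V -0.16, and the groups overlapped for each.

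**Figure D1:**
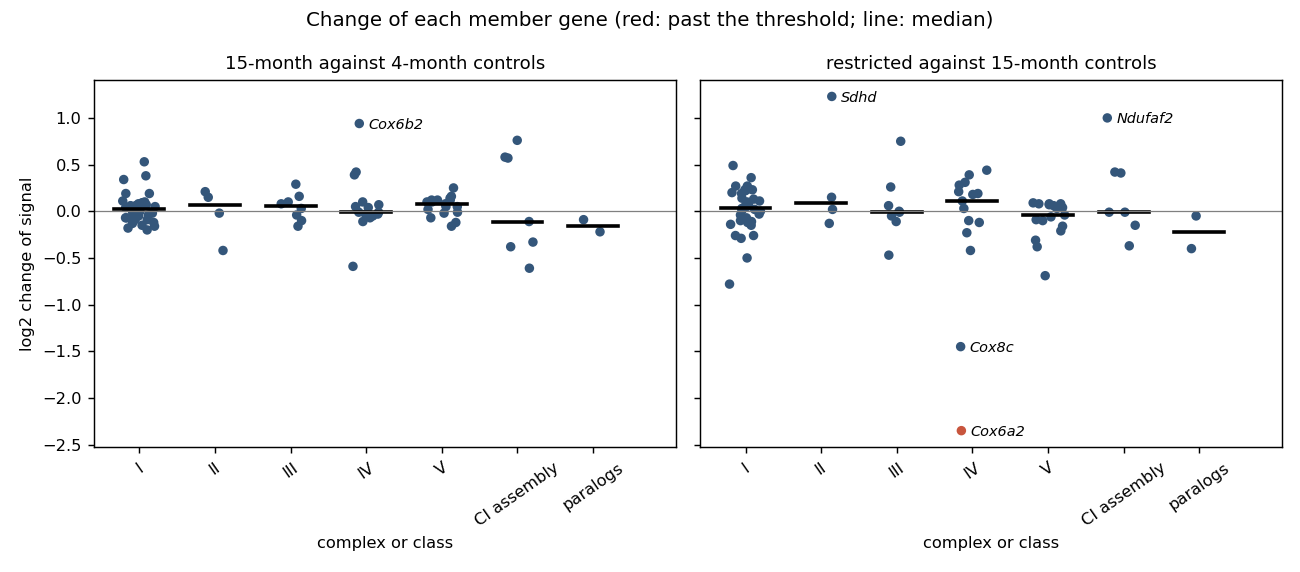
Each point is 1 member gene (brightest measured probe set), its height the log2 difference between group means of 3 arrays, by complex or class, and the line is the median of the class. With age (left) most genes sit close to 0 and none passed the test, and with restriction (right) the medians of complexes I to V stay between -0.04 and 0.11 while Cox6a2, in red, lies at -2.35.

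Under calorie restriction 1 member passed the test. The muscle isoform Cox6a2 fell in CR against MC, and it was the only one of 158 member probe sets called by limma, against 0.0888% of all probe sets called lower and 0.0925% called in either direction. An unadjusted p under 0.05 was reached by 14 member probe sets, 8 higher and 6 lower, which is 8.86% against 18.5% of all probe sets. CR and MC did not overlap for 35 member probe sets, 19 higher and 16 lower, which is 22.2% against 37.8% (19.5% higher and 18.2% lower over all probe sets). Both shares are below the background of these arrays.

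Over the 87 genes the median difference of CR from MC was 0.02, with 47 higher and 40 lower, and the all-probe median was 0.08. This split also moved with the scaling, to 82 higher and 5 lower with arrays centred on their median (member median 0.90, all-probe median 0.58). On values as deposited it was 70 higher and 17 lower (0.28 and -0.04). Adding array class to the fit gave 59 and 28 (0.16 and -0.03). Set against the all-probe median, the member median lay below it after quantile normalization and above it under the other 3 treatments.

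By complex, the medians of CR minus MC were 0.04 for the 34 genes of complex I, 0.08 for the 4 of complex II, -0.01 for the 8 of complex III, 0.11 for the 15 measured of complex IV and -0.04 for the 17 of complex V. The medians of complexes III and V turned to 0.32 and 0.24 on values as deposited, and to 0.94 and 0.86 with arrays centred. The 95% interval lay within 2-fold for 70 of 87 genes, against 22.8% of all probe sets and 55.9% of those with a mean log2 of at least 11.27. Outside it were 6 of the 7 assembly factors, Ndufa4l2 and 10 subunits, among them Cox6a2, Cox8c, Cox6b2, Sdhd and Uqcrh.

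Complex I, the NADH dehydrogenase and point of entry for electrons from NADH, held no gene with an unadjusted p under 0.05 in CR against MC. Its genes ranged from -0.78 (Ndufb4) to 0.49 (Ndufb1), with 21 higher and 13 lower. Both ends of this range were probe sets of low signal, near the filter floor of 8.95. Their group means were 9.30 to 10.08 for Ndufb4 and 9.49 to 9.98 for Ndufb1. The 6 nuclear core genes, which carry the flavin and iron-sulphur centres, had a median of -0.07 and the 28 accessory genes 0.05. Ndufb4, an accessory membrane subunit, had log2 values of 9.23, 9.97 and 9.44 in YC, 9.48, 10.16 and 10.59 in MC and 9.30, 9.32 and 9.29 in CR. The CR arrays were tight and lay below every MC array but within the range of YC, with a difference from MC of -0.78 ± 0.42 (SE, limma adjusted p = 0.338). Ndufs7, an iron-sulphur subunit of the core, had a difference of -0.50 ± 0.25 (limma adjusted p = 0.299) and overlapping groups. It was -0.26 without MC 3 and 0.47 with arrays centred.

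In complex II, succinate dehydrogenase, which also works in the citric acid cycle, the membrane anchor Sdhd had log2 values of 13.31, 12.49 and 13.49 in YC, 13.59, 13.05 and 11.39 in MC and 13.87, 13.93 and 13.94 in CR. The CR arrays were the 3 highest, and MC 3 stood well below the others. The difference of CR from MC was 1.23 ± 0.47 (SE, limma adjusted p = 0.219), and it was 0.59 without MC 3. A second Sdhd probe set pointed the other way, with a difference of -0.77 ± 0.40 (limma adjusted p = 0.323) and CR below MC without overlap. Sdha and Sdhb, the catalytic subunits, had differences of 0.02 and -0.13. The other measured Sdha probe sets had 0.33 ± 0.23 and 0.71 ± 0.65, with overlapping groups (limma adjusted p = 0.436 and 0.552).

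In complex III, the cytochrome bc1 complex, Uqcrh and Uqcrc1 lay on opposite sides. Uqcrh, the acidic hinge protein that takes part in the contact with cytochrome c, had log2 values of 14.44, 14.62 and 14.49 in YC, 14.72, 14.60 and 14.53 in MC and 15.41, 15.16 and 15.52 in CR. All 3 CR arrays lay above all 6 control arrays, and the controls of both ages overlapped. The difference from MC was 0.75 ± 0.16 (SE, 1.68-fold, limma adjusted p = 0.111) and from YC 0.84, and the second Uqcrh probe set had 0.37 ± 0.16 with no overlap. The sign held under every alternative, from 0.56 to 1.62. The limma adjusted p was under 0.05 in 3 of them, with array weights (0.0154), with only the compared groups fitted (0.0322) and without YC 2 (0.0386). It stayed above 0.05 in the others, array class as a term among them, and the array weights did not fully converge.

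Uqcrc1, the gene that stood higher in MC than in YC, had CR values of 14.25, 14.11 and 14.35. These lay below all MC arrays and overlapped YC, with a difference from MC of -0.47 ± 0.17 (SE, limma adjusted p = 0.208) that turned to 0.49 with arrays centred. The remaining 6 complex III genes had differences of CR from MC between -0.11 and 0.26.

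Complex V had the narrowest range of differences among the complexes. Its 17 genes ranged from -0.69 to 0.09 in CR against MC, 8 higher and 9 lower. Atp5g1, one of the genes for the c subunit of the proton-driven ring, had log2 values of 13.90, 13.34 and 13.86 in YC, 14.44, 13.76 and 13.64 in MC and 13.27, 13.32 and 13.17 in CR. The CR arrays were below every control array, with a difference from MC of -0.69 ± 0.24 (SE, limma adjusted p = 0.20), which was -0.45 without MC 1 and turned to 0.31 with arrays centred. Atp5g2 and Atp5g3 encode the same mature ring subunit and had differences of 0.06 and -0.21. Atp5mpl, a small membrane subunit, had -0.38 ± 0.24 (limma adjusted p = 0.401) and Atp5l 0.09, each with overlapping groups, and the catalytic Atp5b had 0.08.

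Complex IV held the one call and the widest range, from -2.35 for Cox6a2 to 0.44 for Cox8a in CR against MC. Cox6a2, the muscle form of a small regulatory subunit, had deposited signals of 21504.5, 18149.5 and 32414.8 in YC, 34601.8, 19668.9 and 38950.7 in MC and 8462.6, 6042.2 and 7252.7 in CR. On the log2 scale these were 14.03, 14.80 and 14.91 in YC, 15.24, 14.32 and 15.34 in MC and 12.80, 12.40 and 12.67 in CR. Every CR array lay below every control array, and MC and YC overlapped.

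The fall of Cox6a2 from MC to CR was -2.35 ± 0.31 on the log2 scale (SE, n = 3 per group, 5.08-fold, limma adjusted p = 0.0357). Against YC the CR arrays differed by -1.96 (limma adjusted p = 0.16), and MC differed from YC by 0.39. A second Cox6a2 probe set had a difference of -2.42 ± 0.58 (limma adjusted p = 0.146), with CR again below MC without overlap. The call was sensitive: the adjusted p rose to 0.126 with arrays centred (difference -1.43), 0.0581 on values as deposited (-2.05), 0.138 without the variance trend and 1 with array class as a term (-1.52). It was also lost when any CR array, MC 1 or MC 3 was left out, and the sign was negative in all 22 alternatives, from -2.67 to -1.43.

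The marker lists moved with Cox6a2. The median of the 14 fast muscle markers, relative to their mean over 9 arrays, was -0.04, 0.45 and 0.98 in YC, 0.95, 0.58 and 1.01 in MC and -0.87, -1.51 and -1.47 in CR. Their summed deposited signal was 299370 to 464980 in CR, 1018660 to 1643150 in MC and 689914 to 1550070 in YC, with no defining marker below the signal filter. Of the 6 slow muscle and heart markers measured, all were lower in CR, with a median of -2.15. Without MC 3 the median was -1.46, with 1 higher and 5 lower. With array class as a term it was -3.23, again with 1 higher and 5 lower. Limma called 0 of the 6 markers, and 5 reached an unadjusted p under 0.05. Their summed deposited signal was 1911 to 2028 in CR and 7209 to 9510 in YC. In MC it was 5951, 8909 and 29452, so that MC 3 stood far above the other MC arrays. Tnnt2 and Myh6 of that list lay below the filter. All 14 fast muscle markers were lower with arrays centred and as deposited too. The part of muscle RNA in the Cox6a2 value was not tested.

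**Figure D2:**
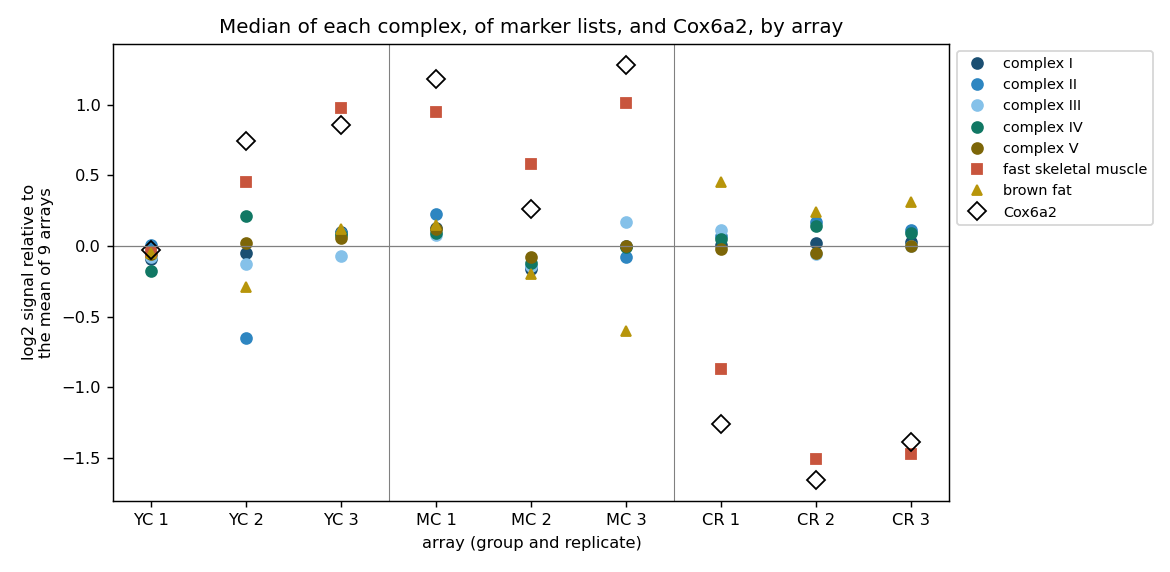
For each of the 9 arrays the plot gives the median log2 signal, relative to each gene's mean over all arrays, of complexes I to V (circles), of fast muscle markers (squares) and of brown fat markers (triangles), and the same value for Cox6a2 (diamonds). Cox6a2 and the muscle markers are low on all 3 CR arrays, while the complex medians there lie between -0.06 and 0.17.

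The other muscle isoforms of complex IV had smaller differences. Cox7a1 had log2 values of 13.47, 13.97 and 14.03 in YC, 13.99, 13.18 and 14.27 in MC and 13.61, 13.44 and 13.68 in CR. The groups overlapped, with a difference of CR from MC of -0.23 ± 0.27 (SE, limma adjusted p = 0.645, 95% interval -0.84 to 0.37), and the sign turned to 0.74 with arrays centred and to 0.12 on values as deposited. Cox8b had 14.56, 15.44 and 15.34 in YC, 14.85, 14.95 and 15.34 in MC and 15.30, 14.74 and 15.19 in CR. Here too the groups overlapped, with a difference of 0.03 ± 0.25 (SE, limma adjusted p = 0.952, 95% interval -0.53 to 0.59). The interval of Cox6a2, -3.02 to -1.67, did not reach either of these.

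The within-array log2 ratio of 2 isoforms shows unequal change between them, not their relative abundance. With 3 arrays against 3, an exact two-sided permutation test cannot give a p below 0.1, and 21 such tests were made over the isoform pairs and contrasts, of which the 9 among the muscle isoforms were added after their values were seen. From MC to CR, Cox6a2 shifted against Cox7a1 by -2.11 and against Cox8b by -2.38, with no overlap of the groups in either (exact permutation p = 0.1, adjusted over the 21 tests p = 0.233). Cox7a1 shifted against Cox8b by -0.27 with overlap (exact permutation p = 0.5, adjusted p = 0.583). With age, Cox6a2 shifted against Cox7a1 by 0.40 with no overlap (exact permutation p = 0.1, adjusted p = 0.233).

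Cox7a1 and Cox8b are also genes of brown fat. Of 6 brown fat markers, 5 were higher in CR than in MC, with a median difference of 0.51 over the 6. Among the higher ones, Fabp4 (0.43) and Adipoq (0.87) are genes of fat cells in general, so the count is not particular to brown fat. The 1 lower marker was Cox7a1 itself, at -0.23. Limma called 0 of the 6, and 4 reached an unadjusted p under 0.05. Ucp1, the uncoupling protein that defines brown fat, had log2 values of 15.27, 15.12 and 15.50 in YC, 15.63, 15.44 and 14.80 in MC and 16.29, 16.30 and 16.29 in CR. The CR arrays lay above all control arrays, with a difference from MC of 1.01 ± 0.21 (SE, limma adjusted p = 0.109). The part of brown fat RNA in the values of Cox7a1 and Cox8b was not tested.

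The widely expressed partners lay slightly higher in CR. Cox6a1 had log2 values of 16.75, 16.89 and 16.50 in YC, 16.74, 16.61 and 16.70 in MC and 16.83, 17.00 and 16.85 in CR. The CR arrays were above MC without overlap and overlapped YC, with a difference from MC of 0.21 ± 0.15 (SE, limma adjusted p = 0.445). Cox8a had 15.09, 15.10 and 14.90 in YC, 15.19, 14.97 and 14.61 in MC and 15.44, 15.33 and 15.33 in CR. Its CR arrays were the 3 highest, with a difference of 0.44 ± 0.17 from MC (SE, limma adjusted p = 0.227), or 0.28 without MC 3, and a second measured probe set had 0.82 ± 0.17 (limma adjusted p = 0.109).

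Cox4i1, the common form of the largest nuclear subunit, had 15.57, 15.65 and 15.72 in YC, 15.79, 15.64 and 15.72 in MC and 15.90, 16.12 and 15.99 in CR. Its CR arrays also lay above all controls, with a difference from MC of 0.28 ± 0.14 (SE, limma adjusted p = 0.291). Cox7a2 had a difference of 0.11 ± 0.13 (limma adjusted p = 0.666), and its second probe set had -0.22 with CR below MC. The 4 partners had a median difference of 0.25, and all 4 were positive for their brightest probe sets. They were also positive with arrays centred and on values as deposited, but so were most members, so these scalings do not set the partners apart. Over the 22 alternatives Cox7a2 went as low as -0.05 and Cox6a1 as low as 0.04. Limma called none of the 4 partners, and 1 reached an unadjusted p under 0.05. Cerebellar markers, 7 of 7 higher in CR with a median of 1.55 (limma called 0 of 7, and 5 reached an unadjusted p under 0.05), and cochlear markers lay on the same side. The cerebellar median relative to 9 arrays was 2.00 on CR 1 against 0.56 and 0.52 on CR 2 and CR 3, and without CR 1 the difference from MC was 1.42. Their part in these values was not tested.

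The ratio of Cox6a2 to its partner separated CR from both control groups. The log2 ratio of Cox6a2 to Cox6a1 was -2.72, -2.09 and -1.59 in YC, -1.50, -2.29 and -1.36 in MC and -4.03, -4.60 and -4.18 in CR. The CR ratios lay below all control ratios, a shift from MC of -2.55 (5.87-fold, exact permutation p = 0.1, adjusted p = 0.233). The shift was -1.67 with array class as a term, and it kept its sign under all 22 alternatives. From YC to CR the shift was -2.14 with no overlap, and -1.55 against YC 1 alone, the only young control in the class of the CR arrays.

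The other pairs shifted less. From MC to CR, Cox7a1 shifted against Cox7a2 by -0.34 and Cox8b against Cox8a by -0.41, each with overlapping groups (exact permutation p = 0.4, adjusted p = 0.494). The first turned to 0.03 with arrays centred or as deposited, and the second to 0.52 with array class as a term. From YC to MC, the Cox6a2 to Cox6a1 ratio shifted by 0.42 (exact permutation p = 0.4), Cox7a1 to Cox7a2 by -0.05 (exact permutation p = 0.8) and Cox8b to Cox8a by 0.04 (exact permutation p = 1).

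Cox4i2, the lung form of subunit 4 known for its response to low oxygen, was measured near the signal filter, whose floor was 8.95. Its log2 values were 9.77, 10.01 and 9.83 in YC, 8.59, 10.06 and 9.19 in MC and 9.19, 8.27 and 9.12 in CR. The CR arrays lay below YC and overlapped MC, with differences of -1.01 and -0.42. Against Cox4i1 it shifted by -0.71 from MC to CR (exact permutation p = 0.4, adjusted p = 0.494) and by -1.36 from YC to CR with no overlap (exact permutation p = 0.1, adjusted p = 0.233).

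**Figure D3:**
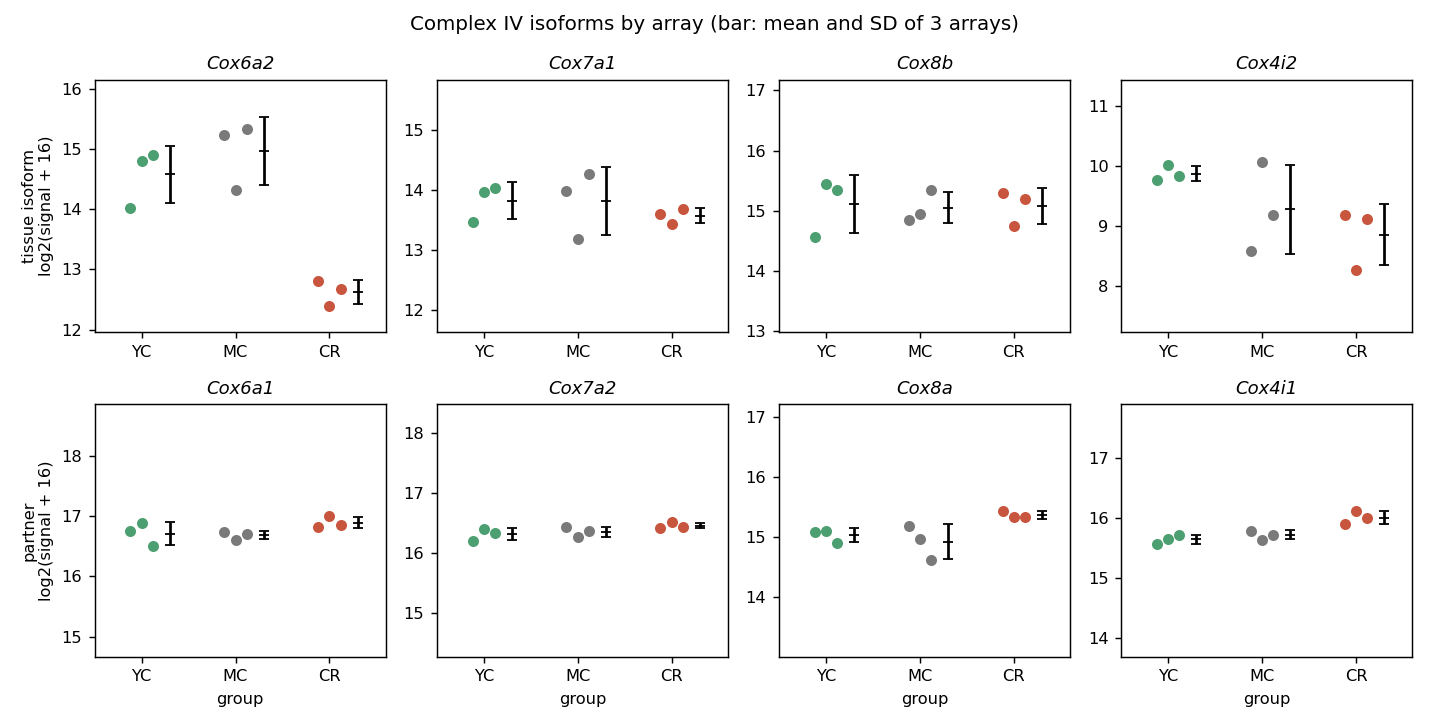
Each panel gives log2(signal + 16) of 1 complex IV gene on the 3 arrays of each group (points), with the group mean and SD beside them; tissue isoforms are in the top row, their partners below, and every panel spans the same number of log2 units. The CR arrays are lower only in the Cox6a2 panel by more than the spread of both control groups.

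The testis forms had low or scattered signals. Cox8c had log2 values of 10.63, 12.82 and 12.11 in YC, 12.30, 12.12 and 12.41 in MC and 10.47, 10.78 and 11.22 in CR. The CR arrays lay below MC, and YC 1 lay with them, apart from YC 2 and YC 3. The difference from MC was -1.45 ± 0.46 (SE, limma adjusted p = 0.187), a second probe set had -1.42, and the sign turned to 0.39 once array class entered the fit. Cox6b2 ranged from 6.05 in YC 2 to 10.68 in YC 1, and its difference of CR from MC was 0.39 ± 0.98. Of 6 testis markers 2 were measured, Cox6b2 and Prm1.

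The remaining complex IV subunits had small differences for their brightest probe sets. Cox5a and Cox5b, the subunits on the matrix side, had differences of CR from MC of -0.10 and -0.12, Cox6b1 of 0.18, Cox6c of 0.19 and Ndufa4 of 0.31. At these probe sets the groups overlapped for all but Ndufa4, whose CR arrays lay above MC. Other probe sets of the same genes differed from these values. The other 4 measured probe sets of Cox5b ranged from -0.67 to 0.42, and at the highest of them CR lay above MC without overlap (0.42 ± 0.15, limma adjusted p = 0.199). A second probe set of Cox6b1 had 0.12 with CR above MC without overlap, and a second of Cox6c had -0.59 ± 0.30 (limma adjusted p = 0.309) with overlap.

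**Figure D4:**
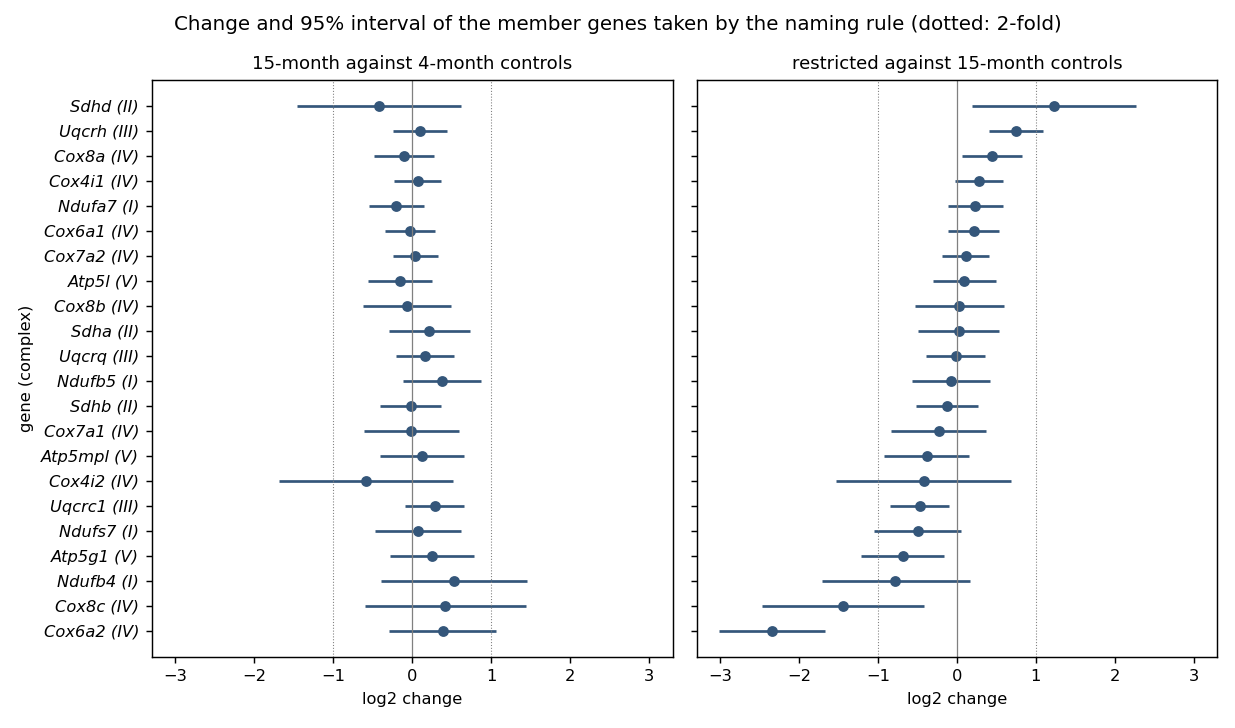
Each point is the log2 difference of a member gene taken by the naming rule (isoform pairs and the genes of smallest p in each complex), with its 95% interval from the limma fit (n = 3 arrays per group), for 15-month against 4-month controls (left) and restricted against 15-month controls (right); dotted lines mark a 2-fold difference. With age each of the intervals plotted includes 0, and with restriction only that of Cox6a2, among those plotted, lies wholly beyond 2-fold.

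CR compared with YC differs in both age and diet, and it shares arrays with the other comparisons. Limma called 0 of 158 member probe sets, against 0% of all, and 12 reached an unadjusted p under 0.05, or 7.59% against 10.8%. The groups did not overlap for 27, or 17.1% against 20.5%. The median over 87 genes was 0.03, with 49 higher and 38 lower, and moved to 0.65 with arrays centred (82 higher and 5 lower) and to 0.24 as deposited (75 higher and 12 lower). The 2 genes that stood apart in the controls by age, Uqcrc1 and Ndufa7, differed between CR and YC by -0.18 and 0.03.

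Genes with several measured probe sets gave a measure of how far probe sets disagree. There were 47 such genes, and the sign of the difference was mixed among a gene's probe sets in 25 of them for MC against YC and in 22 for CR against MC. The median range among probe sets of a gene was 0.19 and 0.29, close to the median SE of 0.20. Differences of that size in single members are within the disagreement between probe sets.

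Limma called 0 genes of the surrounding pathway in any comparison. Of 29 measured electron carriers and complex IV assembly factors, 19 were higher in CR than in MC, with a median of 0.16 and 3 at an unadjusted p under 0.05, a split that became 28 and 1 with arrays centred (median 0.98), 23 and 6 as deposited (0.36) and 15 and 14 once array class entered the fit (0.08). Cox11 and Cox16, assembly factors of complex IV, had differences of 1.15 ± 0.34 and 1.20 ± 0.45 (limma adjusted p = 0.174 and 0.216). Of 19 measured assembly factors of the other complexes, 11 were higher, with a median of 0.17 and 0 at an unadjusted p under 0.05, and 17 were higher with arrays centred (median 0.61), 9 as deposited (0.00) and 15 once array class entered the fit (0.31). Of 16 citric acid cycle genes 11 were higher, with a median of 0.06 and again 0 at that level. All 16 were higher with arrays centred (median 0.98), 15 as deposited (0.37) and 9 once array class entered the fit (0.12), while 8 were higher without MC 2 or without MC 3. These genes took in Sucla2 at 0.25 and Fh1, fumarate hydratase, at -0.31.

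The genes that serve the exchange of ATP and phosphate between mitochondria and cytosol included the pathway gene closest to the threshold, Ckmt2. Of 8 measured, 5 were lower in CR than in MC, with a median of -0.17 and 3 at an unadjusted p under 0.05. With arrays centred 6 were higher and 2 lower (median 0.70), so not all of the falls kept their sign. As deposited 4 were higher and 4 lower (0.08). Ckmt2, the mitochondrial creatine kinase of muscle, had log2 values of 13.91, 14.78 and 14.09 in YC, 15.08, 13.53 and 14.44 in MC and 12.47, 12.15 and 11.71 in CR. As with Cox6a2, every CR array lay below every control array, with a difference from MC of -2.24 ± 0.38 (SE, limma adjusted p = 0.075).

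Slc25a4, the ADP/ATP carrier form of heart and muscle, had 15.75, 16.21 and 15.87 in YC, 16.57, 15.73 and 16.14 in MC and 15.18, 15.49 and 15.16 in CR. Its CR arrays too lay below all controls, with a difference from MC of -0.87 ± 0.22 (SE, limma adjusted p = 0.146). Vdac1, the main channel of the outer membrane, had -0.54 ± 0.19 (limma adjusted p = 0.20).

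Of 20 regulators of mitochondrial biogenesis, 15 were higher in CR than in MC, with a median of 0.37 and 5 at an unadjusted p under 0.05. This split reversed to 5 higher and 15 lower, with a median of -0.25, once array class entered the fit. That term rests on YC 1 against YC 2 and YC 3. Mef2c, a transcription factor of muscle and neurons, had -1.13 ± 0.26 (limma adjusted p = 0.145), while Tfb2m and Twnk, which serve transcription and replication of mitochondrial DNA, had 1.89 ± 0.64 and 1.54 ± 0.60 (limma adjusted p = 0.195 and 0.226). Tfb2m stood at 11.21, 10.71 and 8.31 in MC, and its difference was 1.0 without MC 3, the low array. Of the genes encoded by mitochondrial DNA only ND5 of complex I was measured, at 16.31, 15.87 and 16.34 in MC and 16.27, 16.86 and 17.00 in CR. Its groups overlapped, with a difference of 0.54 ± 0.23 (limma adjusted p = 0.248).

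Of 10 measured genes of uncoupling and alternative respiration, 8 were higher in CR than in MC, with a median of 0.51 and 2 at an unadjusted p under 0.05. Beside Ucp1, Dhodh, the dehydrogenase of pyrimidine synthesis that passes electrons to ubiquinone, had 2.14 ± 0.58 (limma adjusted p = 0.162). Its log2 values were 9.76, 10.59 and 9.56 in YC, 7.72, 6.69 and 8.73 in MC and 9.94, 9.90 and 9.73 in CR. The MC arrays were low, all under the filter floor of 8.95 for mean signal, and CR differed from YC by only -0.12. Ucp3, the muscle uncoupling protein, had -0.69 ± 0.32 (limma adjusted p = 0.278). With arrays centred, as deposited or with array class in the fit, 9 of the 10 were higher.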

How the data were processed

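Whole-cochlea RNA was measured on 9 one-colour arrays, 3 per group, each a pool of 4 cochleae of 2 mice. Per the submitters' processing notes the software was GCOS 1.3. Which signal algorithm, detection calls or array batches were used was not given in the sources used here. Per the file, the authors deposited 1 linear intensity per probe set and array. Array means without the outer 2% on either side were 1494 to 1496, while array medians differed 2.1-fold. Since these medians differed by over 1.5-fold, log2(signal + 16) was taken and quantile normalization applied, a scale on which dim probe sets have understated differences. The filter removed the lowest 40% by mean log2 signal (floor 8.95) and left 27022 of 45037. Group means of all 9 arrays were fitted in limma 3.58.1 under R 4.3.3 (lmFit, eBayes with a variance trend), and p was adjusted over all probe sets by Benjamini-Hochberg with a threshold of 0.05. Precision is limited by the number of arrays, and p-values measure the spread between these pools. The annotation gave 1 symbol for 34945 probe sets, several for 932 and none for 9160, and 0 member symbols changed in RefSeq's GRCm38.p6 table. No gene coordinates other than promoter windows are given.

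The members, the gene lists and the isoform pairs were chosen with earlier results of these data known. Genes described by name were the isoform pairs, any called member, and in each complex the 2 genes with the smallest p in CR against MC and the 2 in MC against YC, plus up to 3 genes of each pathway list. Cox6b2, Ndufb1, Cox5a, Cox5b, Cox6b1, Cox6c, Ndufa4, Atp5b, Atp5g2, Atp5g3 and the marker Pvalb were added after their values were seen. Symbols in lists follow the array annotation. Replicate numbers were not used to pair the samples in the main fit. Deviations of same-numbered arrays correlated between -0.29 and 0.266, a range that alone cannot settle whether samples were paired.

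On simulated data of 27022 probe sets, the test recovered 2%, 32%, 70% and 80% of 50 probe sets changed by log2 1, 2, 3 and 4 for age, and 8%, 40%, 82% and 80% for restriction. Leaving out an array for the pathway genes and marker lists was added after the data were seen. Other alternatives were pseudocounts of 1 and 64, dropping the filter or raising it to the 60th percentile, centring on the median, deposited values, array weights, no variance trend, fits limited to the compared groups, a replicate block, array class or median as a term, comparison within class, the mean of a gene's probe sets, and leaving out each array.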

Additional observations from a re-analysis of the deposited data

How the results depend on the processing

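The number of members called in CR against MC was 1, and 0 with arrays centred on their median, with values as deposited, without the variance trend, with the replicate block, with array class as a term and with array median as a covariate. It was 9 with array weights (3397 of all probe sets called; the weights did not fully converge) and 5 with only the compared groups. Leaving out each array gave 0 to 4 members (0 without CR 1, CR 2, CR 3, MC 1 or MC 3, 2 without MC 2 or YC 1, 4 without YC 2), and 0 to 4 in CR against YC (4 without YC 1). In MC against YC it was 0 throughout. With the replicate block Cox6a2 differed by -2.35 (limma adjusted p = 0.0784), and with array median as a covariate by -1.80 (adjusted p = 0.554). Over all alternatives its adjusted p lay between 0.00102 and 1. Averaging all probe sets of a gene gave Cox6a2 -2.38 (adjusted p = 0.0602). The cause was not tested.

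The member median moved to -0.21 in MC against YC with arrays centred. In CR against MC it moved to 0.90 (centred), 0.28 (as deposited), 0.16 (array class) and 0.14 (array median as a covariate), and in CR against YC to 0.65 (centred), 0.24 (as deposited), and 0.13 (array class, and within class). Among isoform ratios in CR against MC, Cox6a2 to Cox6a1 moved to -1.67 (class) and -2.08 (covariate), Cox7a1 to Cox7a2 to 0.03 (centred, and as deposited) and 0.01 (class), Cox8b to Cox8a to 0.52 (class) and 0.14 (covariate), and Cox4i2 to Cox4i1 to -1.51 (centred, and as deposited). In CR against YC, Cox6a2 to Cox6a1 moved to -1.55 and Cox8b to Cox8a to 0.25, each with class and within class. With arrays centred, CR against MC reversed to 0.31 for Atp5g1, 0.47 for Ndufs7 and 0.49 for Uqcrc1. Cox8c reversed to 0.39 in CR against MC (class) and to 0.20 in CR against YC (class, and within class). For these too the cause was not tested. Of 1490 alternative values of named genes 120 changed sign, as did 63 of 408 medians and 14 of 269 ratios. CR against MC has no value within an array class, since no class holds both groups. With 3 pools per group, the limma self-test recovered few differences of log2 1. It was run on 27022 simulated probe sets, and the tested probe sets had a median SE of 0.43, against 0.2 for the member genes. Its rates therefore do not give the recovery among members. The interval of the difference lay within 2-fold for 73 of 87 member genes in MC against YC and for 70 in CR against MC. Within that bound, and for the other genes, members without a call are not shown to be unchanged.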
